A study of Rattus norvegicus and Mus musculus with 22 samples.

Results

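At day 7 of the Sugen-hypoxia (SuHx) model, 2 CD4-positive cell isolates from lungs of IL6KO rats were compared with 3 whole-lung samples of the same genotype, treatment and day. These 5 libraries were chosen by their sample labels out of 22 in the series. The IL6KO rats carry a knockout of the interleukin-6 gene, given as IL6-KO or IL6-/-, and every rat library used here, WT included, came from an animal under Sugen-Hypoxia, so no untreated lung entered any comparison. Sugen (SU5416) blocks the vascular endothelial growth factor receptor, and its combination with low oxygen is used in rats as a model of pulmonary arterial hypertension. The isolates were prepared by MACS, the magnetic separation of cells that carry an antibody-bound surface protein, here CD4. The labels do not say whether an isolate and a lung came from the same rat, nor whether animals were pooled. The nearest like set, 2 WT isolates and 3 WT lungs of the same day and treatment, was used where a difference between genotypes was tested. The comparison asks what the CD4 separation retained from a lung without IL-6, and which transcripts of the other lung cells were still present in the isolates.

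CD4 is the coreceptor of helper and regulatory T cells, which recognise peptides on MHC class II molecules through the CD3-associated T cell receptor. Rat monocytes and macrophages, unlike those of the mouse, also carry surface CD4, and they depend on the colony-stimulating factor receptor encoded by Csf1r. IL-6 signals through IL-6 receptor alpha and gp130 to the transcription factor STAT3, which induces Socs3 as a feedback inhibitor and favours Th17 over regulatory T cell differentiation. Tissue digestion and magnetic separation are known to induce immediate-early and heat-shock genes in the separated cells.

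The 2 IL6KO isolates held 11899277 and 11477533 counts and the 3 IL6KO lungs between 16355574 and 19556153. Levels are given as CPM, counts scaled to library size by TMM (trimmed mean of M values), which is meant to correct for differences in RNA makeup. The isolates came from one count table and the lungs from another, so a step that differed between the tables and the difference between isolate and lung cannot be told apart. Between the 2 IL6KO isolates, 116 of the 8790 genes at 10 CPM or more were over 2-fold apart (1.32%), against 0.394% to 0.568% for pairs of IL6KO lungs and 0.564% for the WT isolates. The labels name no separate animals, so p-values measure the spread between these libraries only. Fewer cells of a type and less RNA per cell cannot be told apart in bulk samples.

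Il6 itself was at the edge of detection. Its raw counts were 8 and 17 in the IL6KO isolates and 8, 5 and 2 in the IL6KO lungs, against 48 and 20 in the WT isolates and 5, 11 and 6 in the WT lungs. The IL6KO isolates lay below the WT isolates, and the IL6KO lungs overlapped the WT lungs. Which part of the gene is deleted is not given in the sources used here, so these few counts do not check the genotype. Within the IL6KO libraries the isolates were above the lungs by a log2 difference of 2.11 ± 0.61 (SE, adjusted p = 0.0113), a call that was lost without isolate 2, where the adjusted p was 0.155, and with the replicate number as a block.

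Of 14515 genes tested between IL6KO isolates and lungs with edgeR's quasi-likelihood test, 11422 (78.7%) differed at an adjusted p under 0.05. Of all genes tested, 36.1% were higher in the isolates and 42.6% were lower, and the median log2 difference was -0.11. With a log2 difference of more than 1 required (glmTreat), 43.8% were called, 14.5% higher and 29.3% lower. The libraries of isolates and lungs did not overlap for 86.5% of the genes tested. Since most genes differed, a call alone says little about a list, and the size of the difference beside the median of all genes carries more of the description.

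The markers of T cells and of macrophages were both above lung. Cd3e, a signalling chain of the T cell receptor complex, was at 533 and 478 CPM in the isolates against 7.38, 7.33 and 5.92 CPM in the lungs. Cd4 was at 838 and 788 CPM in the isolates against 26.8, 29.6 and 21.8 CPM in the lungs, and Csf1r at 1649.8 and 1629 CPM in the isolates against 284, 265 and 262 CPM in the lungs. All 3 genes were higher in each isolate than in any lung. Log2 differences were 6.20 ± 0.13 (SE, adjusted p = 4.16e-09) for Cd3e, 4.97 ± 0.14 (SE, adjusted p = 6.74e-09) for Cd4 and 2.60 ± 0.09 (SE, adjusted p = 1.52e-08) for Csf1r. Both isolates carried T cell and macrophage transcripts, with a larger difference from lung for the T cell chain.

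**Figure D1:**
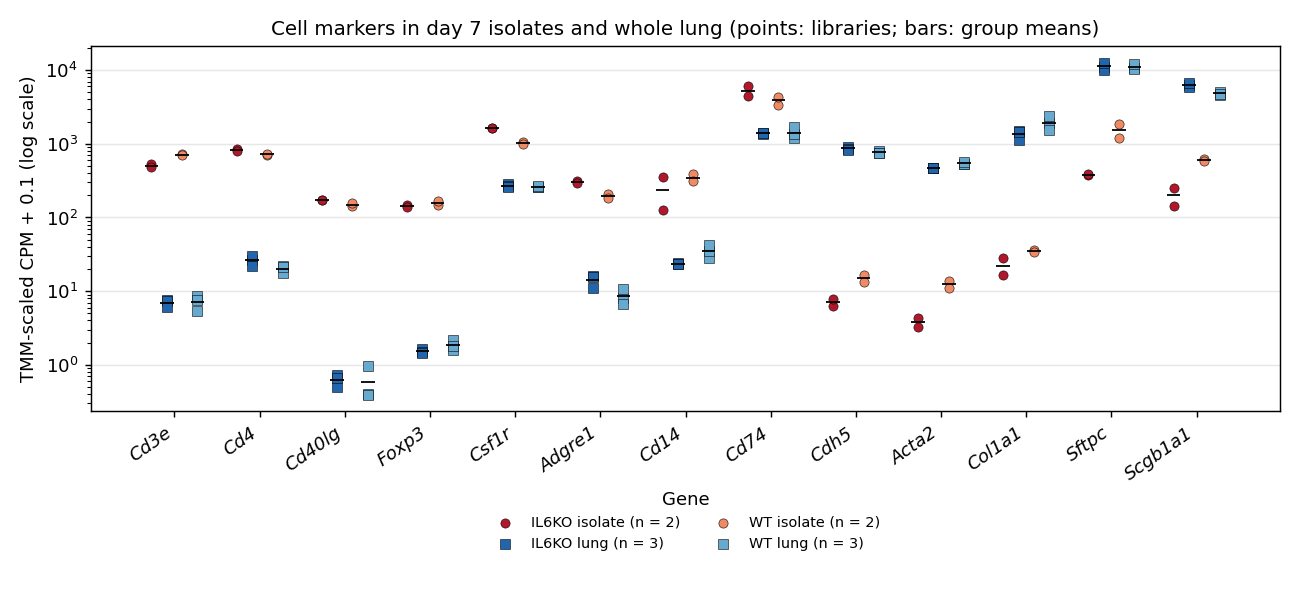
TMM-scaled CPM plus 0.1 on a log axis for 13 marker genes in the day 7 libraries, with a point per library (circles for isolates, squares for lungs) and a bar at each group mean. T cell genes and Csf1r sit above lung in the isolates, while Cdh5, Acta2, Col1a1, Sftpc and Scgb1a1 sit below it; Cd14 differs between the 2 IL6KO isolates (125 and 349 CPM).

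All 20 genes of the T cell identity list were measured and passed the filter on low counts. In the isolates 19 were higher and 1 was lower, where 36.1% and 42.6% of all genes tested were, with a median log2 difference of 5.56. Their summed level was 4136 and 3678 CPM in the isolates and 132, 119 and 102 CPM in the lungs, which is 3313% of the lung level on the group means. Besides Cd3e, the other CD3 chains followed. Cd3d was at 198 and 183 CPM in the isolates against 2.53, 3.10 and 1.58 CPM in the lungs, and Cd3g at 241 and 210.5 CPM in the isolates against 3.51, 2.42 and 2.01 CPM in the lungs. Lat, the adaptor that links the receptor to downstream signalling, was at 233 and 219.8 CPM in the isolates against 5.16, 5.18 and 5.30 CPM in the lungs, a log2 difference of 5.44 ± 0.10 (SE, adjusted p = 3.89e-09). The adaptor gene Skap1 was at 176 and 162 CPM in the isolates against 3.41, 3.21 and 3.34 CPM in the lungs, a log2 difference of 5.67 ± 0.11 (SE, adjusted p = 3.89e-09). Every isolate value of these genes was far above every lung value. The single lower member was Thy1, named after its values were seen. It encodes a surface glycoprotein that fibroblasts also carry, and it was at 1.98 and 2.41 CPM in the isolates against 31.5, 18.8 and 22.7 CPM in the lungs.

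Costimulatory and T cell differentiation genes were among the 10 largest differences of genes higher in the isolates. Cd28, the receptor for CD80 and CD86 that gives T cells their second activating signal, was at 159.6 and 155 CPM in the isolates against 0.826, 1.13 and 0.239 CPM in the lungs, a log2 difference of 7.78 ± 0.28 (SE, adjusted p = 1.14e-07). Ctla4, which competes with CD28 for those ligands and restrains T cells, was at 177 and 198 CPM in the isolates against 0.671, 0.338 and 0.382 CPM in the lungs, a log2 difference of 8.63 ± 0.18 (SE, adjusted p = 4.16e-09). Cd40lg, the CD40 ligand that activated helper T cells present to B cells and macrophages, was at 174 and 173 CPM in the isolates against 0.619, 0.394 and 0.573 CPM in the lungs, a log2 difference of 8.33 ± 0.14 (SE, adjusted p = 3.89e-09). Themis, a regulator of T cell receptor signalling in thymocyte selection, differed by 7.40 ± 0.31 (SE, adjusted p = 5.77e-08). In each of these genes the lungs stayed at about 1 CPM or lower, and both isolates stood close together. Among the same 10 genes, Fam71a was at 5.31 and 5.93 CPM in the isolates and had 0 counts in every lung, at least 33.2-fold higher with a floor of 3 counts per library. Ppp1r3g, a glycogen-targeting subunit of protein phosphatase, was at 4.50 and 6.58 CPM in the isolates against 0, 0.0564 and 0 CPM in the lungs, the single lung value being 1 count. Its fitted log2 difference moved from 7.79 to 9.43 without IL6KO lung 2.

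Cd28 is shown as an example of a T cell promoter with a match to the RUNX core, the binding motif of a transcription factor family with a central part in T cell development. The 250 bases before its start (RefSeq, GRCr8, chr9:69660066-69660315, plus strand) are given 5′ to 3′, with the 2 matches, on either strand and starting 120 and 31 bases before the start, in capitals.
Cd28: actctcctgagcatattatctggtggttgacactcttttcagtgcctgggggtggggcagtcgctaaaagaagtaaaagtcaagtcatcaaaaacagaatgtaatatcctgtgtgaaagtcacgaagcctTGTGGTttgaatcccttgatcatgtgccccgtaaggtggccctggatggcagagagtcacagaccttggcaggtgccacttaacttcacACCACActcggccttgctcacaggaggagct
The motif searched was TGTGGT on both strands of windows from 250 bases before to 50 after each start; neither match overlapped a match to the other motifs searched. Of the 20 genes of the T cell identity list, 14 matched a window by symbol, and 4 of these held the motif (28.6%), against 17.3% of 33469 promoter windows. The match is a description of the letters and was not tested against the expression values.

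The CD4 chain was above lung and the CD8 alpha chain was not. Of 7 genes measured, 6 were higher and none was lower, with a median log2 difference of 3.11. Cd8a, the CD8 alpha chain of cytotoxic T cells that rat natural killer cells also carry, was at 14.3 and 11.7 CPM in the isolates against 15.6, 15.3 and 11.1 CPM in the lungs. Both isolates lay within the range of the lungs, and the log2 difference of -0.10 ± 0.19 (SE, adjusted p = 0.632) did not pass the threshold under any of the 15 alternatives. Zbtb7b, the transcription factor ThPOK that fixes the CD4 fate, was at 78.2 and 60.8 CPM in the isolates against 38.9, 36.3 and 39.5 CPM in the lungs, a log2 difference of 0.86 ± 0.12 (SE, adjusted p = 0.000149). Runx3, which promotes the CD8 fate, was at 27.5 and 34.8 CPM in the isolates against 2.48, 2.25 and 3.34 CPM in the lungs, a log2 difference of 3.53 ± 0.19 (SE, adjusted p = 2.99e-07).

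Genes of naive and recirculating T cells were higher in the isolates for 10 of 11 measured members, with 1 lower and a median log2 difference of 2.89. Ccr7, the chemokine receptor that guides T cells into lymph nodes, was at 576 and 668 CPM in the isolates against 8.10, 7.16 and 7.54 CPM in the lungs, a log2 difference of 6.35 ± 0.12 (SE, adjusted p = 3.89e-09). The transcription factor genes Satb1 and Lef1 differed by 4.76 ± 0.11 (SE, adjusted p = 4.16e-09) and 4.38 ± 0.10 (SE, adjusted p = 4.16e-09). The lower member was Dpp4, named after its values were seen, a surface peptidase that epithelium also carries.

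Regulatory T cell genes were mostly higher. Of 11 listed genes 10 passed the filter; 8 were higher, 1 was lower and the median log2 difference was 4.93. Foxp3, the lineage transcription factor, was at 147 and 139.7 CPM in the isolates against 1.55, 1.41 and 1.34 CPM in the lungs, a log2 difference of 6.64 ± 0.12 (SE, adjusted p = 3.89e-09). Il2ra, the alpha chain of the IL-2 receptor, was at 103 and 113 CPM in the isolates against 3.97, 3.89 and 3.68 CPM in the lungs, and Tnfrsf18, the costimulatory receptor GITR, at 64.0 and 52.5 CPM in the isolates against 1.81, 1.80 and 1.67 CPM in the lungs. They differed by 4.81 ± 0.11 (SE, adjusted p = 4.26e-09) and 5.05 ± 0.14 (SE, adjusted p = 7.8e-09). The lower member, Lrrc32, named after its values were seen, encodes GARP, which platelets also carry. All 13 activation genes were higher, with a median log2 difference of 5.18. Cd69, an early activation marker that holds lymphocytes in tissue, was at 513 and 581 CPM in the isolates against 5.83, 6.03 and 4.96 CPM in the lungs, and Nr4a1, an immediate-early nuclear receptor downstream of the T cell receptor, at 1138 and 1105 CPM in the isolates against 27.5, 30.8 and 27.8 CPM in the lungs. Their log2 differences were 6.61 ± 0.13 (SE, adjusted p = 4.16e-09) and 5.29 ± 0.10 (SE, adjusted p = 3.89e-09).

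Helper subset genes were mixed. For Th1, 8 genes were measured; 6 were higher and 2 were not called, with a median log2 difference of 2.34. The chemokine receptor Cxcr3 was at 31.3 and 27.3 CPM in the isolates against 3.51, 2.65 and 2.67 CPM in the lungs, a log2 difference of 3.32 ± 0.17 (SE, adjusted p = 1.68e-07); the IL-18 receptor genes Il18rap and Il18r1 differed by 2.37 ± 0.14 (SE, adjusted p = 5.22e-07) and 2.31 ± 0.16 (SE, adjusted p = 1.54e-06). For Th2, 5 of 8 listed genes passed the filter and 4 were higher. Gata3, the Th2 master regulator, was at 129.5 and 136 CPM in the isolates against 15.2, 15.2 and 14.8 CPM in the lungs, a log2 difference of 3.14 ± 0.09 (SE, adjusted p = 7.41e-09). The cytokine genes Il4, Il5 and Il13, named after their values were seen, had 0 counts in both isolates, where 3 counts correspond to 0.27 and 0.278 CPM. Ccr4, a receptor of Th2 and regulatory T cells, was at 47.7 and 50.4 CPM in the isolates against 0.103, 0.225 and 0.143 CPM in the lungs, a log2 difference of 8.24 ± 0.20 (SE, adjusted p = 4.95e-09). Ccr8, another receptor of these cells, was at 13.1 and 11.8 CPM in the isolates with 0 counts in the 3 lungs, at least 73.7-fold higher with a floor of 3 counts per lung. For Th17, 9 of 10 listed genes passed, 6 were higher and 3 lower. Rora, one of the Th17 nuclear receptors, was at 17.6 and 21.9 CPM in the isolates against 1.96, 2.03 and 2.67 CPM in the lungs, a log2 difference of 3.14 ± 0.19 (SE, adjusted p = 6.52e-07), while Il1r1 and Ahr, which structural lung cells also express, differed by -4.09 ± 0.12 (SE, adjusted p = 7.36e-09) and -2.27 ± 0.19 (SE, adjusted p = 6.9e-06). The Th17 median of 1.84 changed to -1.14 when only genes with a mean of at least 5 CPM were fitted, so its direction depended on the filter. For Tfh, 6 of the 7 genes that passed were higher; the inhibitory receptor gene Pdcd1 was at 19.9 and 20.3 CPM in the isolates against 0.361, 0.169 and 0.43 CPM in the lungs, and Icos and Tox differed by 5.67 ± 0.13 (SE, adjusted p = 4.7e-09) and 4.04 ± 0.15 (SE, adjusted p = 3.26e-08).

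Inflammatory cytokine genes included the largest difference among genes higher in the isolates. Tnf, the gene for tumour necrosis factor, was at 75.9 and 76.4 CPM in the isolates against 0.0516, 0 and 0.0477 CPM in the lungs, a log2 difference of 10.82 ± 0.23 (SE, adjusted p = 4.16e-09). With 0 or 1 count in each lung the fitted size depends on the prior count. Il1b, made mostly by activated monocytes, was at 938 and 1309 CPM in the isolates against 12.3, 14.3 and 11.4 CPM in the lungs, a log2 difference of 6.48 ± 0.18 (SE, adjusted p = 7.24e-09). Of 21 listed cytokine genes 18 passed the filter; 11 were higher and 2 lower, with a median log2 difference of 2.16. Among 27 chemokine genes, 14 were higher and 11 lower, where 36.1% and 42.6% of all genes tested were. Cxcl2, a neutrophil attractant of myeloid cells, was at 255 and 489.7 CPM in the isolates against 0.929, 0.789 and 0.812 CPM in the lungs, a log2 difference of 8.78 ± 0.37 (SE, adjusted p = 1.48e-06), and Ccl3, a macrophage and T cell chemokine, at 448 and 634 CPM in the isolates against 5.37, 4.40 and 4.39 CPM in the lungs, a log2 difference of 6.84 ± 0.19 (SE, adjusted p = 6.88e-09). The lower chemokines included products of lung structure. Ccl21, made by lymphatic endothelium, was at 2.25 and 3.06 CPM in the isolates against 149.7, 116 and 125 CPM in the lungs, Cxcl14 at 1.17 and 1.02 CPM in the isolates against 64.4, 78.8 and 59.9 CPM in the lungs and the endothelial and epithelial chemokine Cx3cl1 at 1.17 and 2.04 CPM in the isolates against 48.5, 52.6 and 57.8 CPM in the lungs. Most chemokine receptor genes were higher, with 14 of 18 measured genes higher and 3 lower. Cxcr4, the CXCL12 receptor of lymphocytes and myeloid cells, was at 1309.9 and 1588 CPM in the isolates against 42.0, 48.5 and 57.6 CPM in the lungs, and the scavenger receptor Ackr3 at 5.13 and 3.15 CPM in the isolates against 292, 285 and 301 CPM in the lungs.

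Monocyte and macrophage genes were mostly higher in the isolates. Of 26 genes measured, 23 were higher, 1 was lower and 2 were not called, with a median log2 difference of 2.49. Adgre1, the F4/80 antigen, was at 309 and 292 CPM in the isolates against 16.1, 15.4 and 10.8 CPM in the lungs, a log2 difference of 4.42 ± 0.16 (SE, adjusted p = 3.06e-08). Fcgr1a, the high-affinity IgG receptor, was at 153 and 131 CPM in the isolates against 21.6, 19.6 and 22.1 CPM in the lungs, a log2 difference of 2.76 ± 0.11 (SE, adjusted p = 3.4e-08), and Aif1, an actin-binding protein of macrophages, differed by 2.42 ± 0.09 (SE, adjusted p = 3.57e-08). Cd68, a lysosomal protein of macrophages, was at 249.6 and 293 CPM in the isolates against 67.9, 70.2 and 82.0 CPM in the lungs, a log2 difference of 1.89 ± 0.12 (SE, adjusted p = 6.79e-07). Cd14, the lipopolysaccharide coreceptor, was at 125 and 349 CPM in the isolates against 24.1, 23.2 and 23.2 CPM in the lungs and differed between the isolates; its log2 difference was 3.34 ± 0.48 (SE, adjusted p = 0.00286), with 3.90 without isolate 1 and 2.42 without isolate 2. The summed level of the list did not separate the groups, at 14543 and 19561 CPM in the isolates and 16824, 18633 and 21244 CPM in the lungs. The sum is carried by Lyz2, the lysozyme gene and the only lower member, named after its values were seen. Lyz2, which alveolar type 2 cells also express, was at 6897 and 10300.2 CPM in the isolates against 14914, 16792 and 19336 CPM in the lungs.

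Antigen presentation genes went with the macrophage genes. All 11 measured MHC class II genes were higher, with a median log2 difference of 1.94 and a summed level of 8767 and 12663 CPM in the isolates and 2800.0, 2731 and 2765 CPM in the lungs. The invariant chain Cd74 was at 4394 and 6171 CPM in the isolates against 1389, 1368 and 1399 CPM in the lungs, a log2 difference of 1.93 ± 0.14 (SE, adjusted p = 1.54e-06). RT1-DMa and RT1-DMb, which load peptides onto class II molecules, differed by 2.71 ± 0.13 (SE, adjusted p = 1.58e-07) and 1.79 ± 0.09 (SE, adjusted p = 1.41e-07), and RT1-Bb, a class II beta chain, by 1.94 ± 0.15 (SE, adjusted p = 4.2e-06). The classical RT1 genes are near copies of each other, and how reads were divided among them is not given. Dendritic cell genes were split, 7 higher and 5 lower of 13 tested. Irf8, a factor of monocytes and dendritic cells, was at 191 and 233 CPM in the isolates against 60.0, 63.2 and 55.4 CPM in the lungs, a log2 difference of 1.83 ± 0.11 (SE, adjusted p = 6.65e-07), whereas Clec9a, a marker of conventional type 1 dendritic cells, was at 0.81 and 0.927 CPM in the isolates against 12.3, 13.9 and 13.7 CPM in the lungs, and Zbtb46 and Fscn1 differed by -2.47 ± 0.17 (SE, adjusted p = 1.67e-06) and -2.53 ± 0.21 (SE, adjusted p = 5.47e-06). In the alveolar macrophage list 8 of 10 measured genes passed, 3 were higher, 1 was lower and 4 were not called. Its median of 0.01 changed sign under 8 of the 14 alternatives other than glmTreat. The integrin gene Itgax, carried by dendritic cells and alveolar macrophages, was at 324 and 214 CPM in the isolates against 33.5, 44.0 and 27.5 CPM in the lungs, and the lectin-like receptor gene Siglec5 at 31.8 and 11.9 CPM in the isolates against 3.30, 2.82 and 3.53 CPM in the lungs. These differed by 2.95 ± 0.24 (SE, adjusted p = 3.42e-05) and 2.76 ± 0.41 (SE, adjusted p = 0.000778), and Siglec5 moved to 1.88 without isolate 1 and to 3.30 without isolate 2.

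Most neutrophil genes that passed were above lung. Of 16 genes measured 11 passed the filter; 8 were higher and 1 lower, and the summed level was 663 and 565 CPM in the isolates and 76.0, 74.2 and 69.5 CPM in the lungs. Csf3r, the G-CSF receptor, was at 246 and 203 CPM in the isolates against 16.2, 17.6 and 16.8 CPM in the lungs, a log2 difference of 3.74 ± 0.11 (SE, adjusted p = 9.19e-09), and the decoy receptor Il1r2 at 96.5 and 103 CPM in the isolates against 4.90, 4.85 and 5.39 CPM in the lungs, a log2 difference of 4.30 ± 0.11 (SE, adjusted p = 4.95e-09). S100a8 and S100a9, the calprotectin subunits, were at 66.5 and 56.5 CPM in the isolates against 11.2, 11.4 and 9.26 CPM in the lungs and at 191 and 139.7 CPM in the isolates against 20.9, 19.3 and 16.0 CPM in the lungs. B cell genes showed no common direction, with 5 higher and 5 lower of 15 tested. Their summed level was higher in each isolate than in any lung, at 202 and 192 CPM in the isolates and 111, 123 and 92.3 CPM in the lungs. The inhibitory coreceptor Cd22 was at 104 and 94.7 CPM in the isolates against 12.5, 15.1 and 8.40 CPM in the lungs, and the transcription factor gene Ebf1 at 0.81 and 0.463 CPM in the isolates against 15.8, 13.0 and 13.6 CPM in the lungs. The median of the B cell list changed sign without isolate 1 and with the 5 CPM filter. Plasma cell genes were 4 higher and 4 lower; the higher Irf4 and Prdm1 also act in activated T cells, and Sdc1, which epithelium shares, was at 15.6 and 16.8 CPM in the isolates against 343, 358 and 385 CPM in the lungs.

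Cytotoxic and natural killer genes were mostly not above lung. Of 15 measured, 3 were higher, 8 were lower and 4 were not called, with a median log2 difference of -1.07. Their summed level, however, was higher in each isolate than in any lung, at 325 and 213 CPM in the isolates and 200, 189 and 163 CPM in the lungs. The granzyme gene Gzma was at 1.35 and 2.32 CPM in the isolates against 17.9, 14.8 and 13.5 CPM in the lungs, and Ccl5, a chemokine of cytotoxic cells, at 4.86 and 7.69 CPM in the isolates against 46.6, 42.7 and 43.1 CPM in the lungs. They differed by -3.06 ± 0.26 (SE, adjusted p = 5.01e-06) and -2.81 ± 0.18 (SE, adjusted p = 8.45e-07). The natural killer receptor Ncr1 was at 1.62 and 1.39 CPM in the isolates against 7.85, 9.24 and 7.21 CPM in the lungs, a log2 difference of -2.42 ± 0.24 (SE, adjusted p = 1.56e-05), while Ncr3 was at 6.48 and 6.30 CPM in the isolates against 0.568, 0.507 and 0.621 CPM in the lungs, a log2 difference of 3.48 ± 0.27 (SE, adjusted p = 2.84e-06). Mast cell, basophil and eosinophil genes were lower for 9 of 10 that passed, with 18.8 and 21.8 CPM in the isolates and 217, 240.2 and 234 CPM in the lungs in sum. Kit, the stem cell factor receptor, was at 3.78 and 6.49 CPM in the isolates against 124, 142 and 128 CPM in the lungs, and the exception was the eosinophil chemokine receptor Ccr3 at 11.6 and 9.36 CPM in the isolates against 0.31, 0.113 and 0.191 CPM in the lungs, which Th2 cells can also carry.

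Red cell transcripts overlapped between isolates and lungs. Of 10 erythroid genes that passed, none was higher, 1 was lower and 9 were not called. Their sum was 18281 and 8565 CPM in the isolates and 28519, 11044 and 15043 CPM in the lungs. Across the 14 alternatives other than glmTreat, the count of lower genes ran from 0 to 9. The band 3 anion exchanger gene Slc4a1 was at 29.1 and 6.30 CPM in the isolates against 97.3, 29.8 and 33.5 CPM in the lungs, and its log2 difference of -1.59 ± 1.03 (SE, adjusted p = 0.241) passed only with the replicate number as a block, at an adjusted p of 0.00013. Platelet genes were lower for 8 and higher for 2 of 11 that passed; Itgb3, an integrin chain that macrophages also express, was at 57.8 and 56.0 CPM in the isolates against 23.4, 18.3 and 19.1 CPM in the lungs, and the platelet integrin gene Itga2b at 1.44 and 1.48 CPM in the isolates against 10.2, 6.99 and 10.8 CPM in the lungs.

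**Figure D2:**
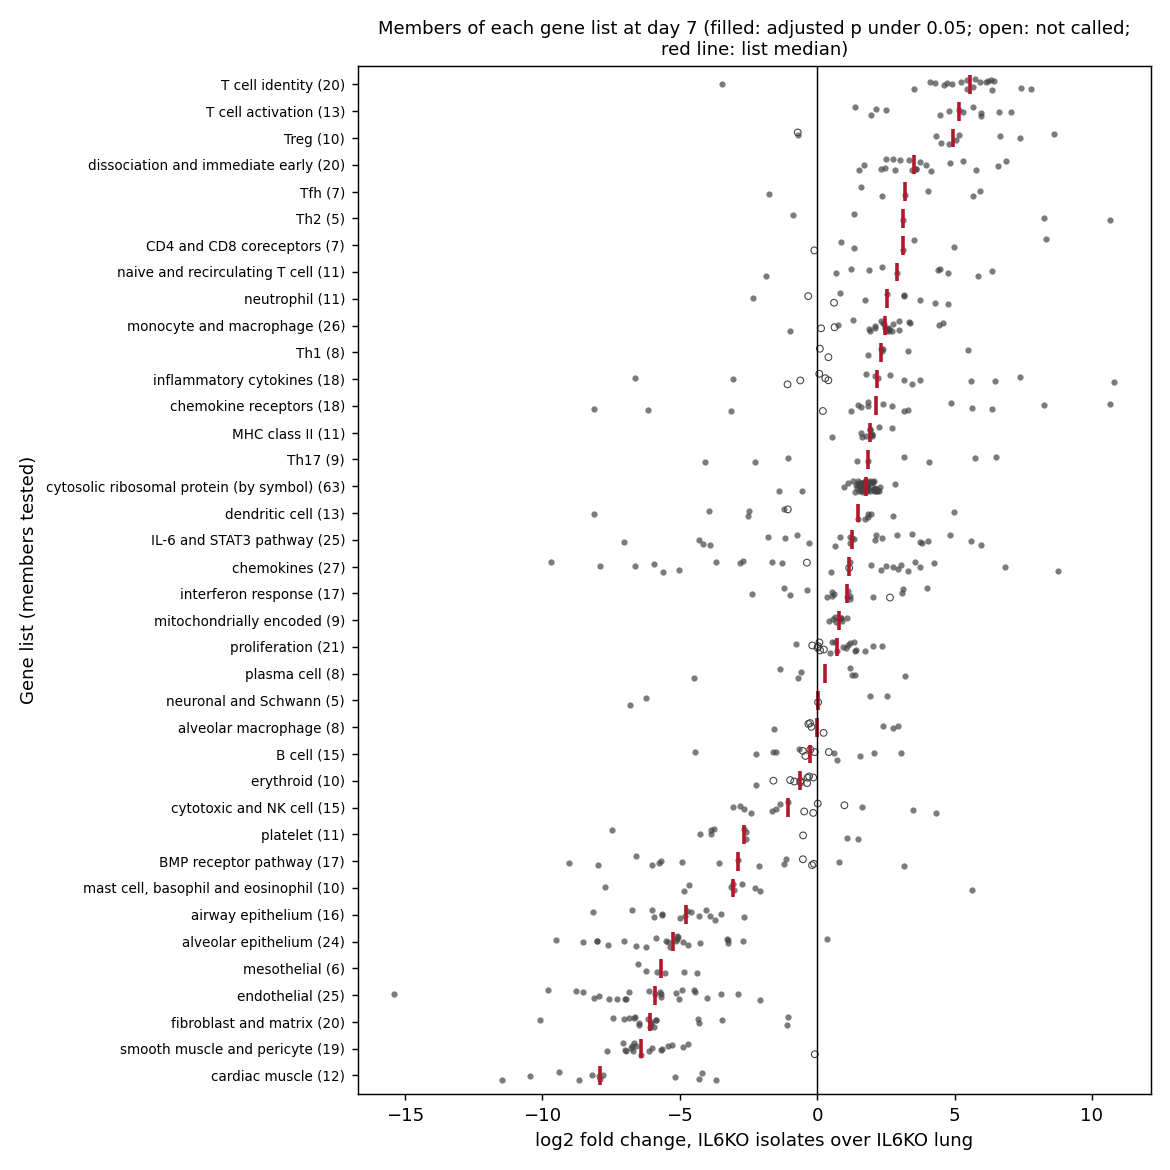
Log2 difference of IL6KO isolates over IL6KO lung for the members of each gene list that passed the filter on low counts, with filled points for genes at an adjusted p under 0.05, open points for the rest and a red line at the list median. The medians of the T cell identity, T cell activation, immediate-early, and monocyte and macrophage lists lie to the right of 0. That of the alveolar macrophage list is 0.01. The endothelial, smooth muscle, fibroblast, epithelial and cardiac lists have medians between -4.77 and -7.91. Fitted values of genes at 0 counts, such as the leftmost endothelial point (Cldn5), depend on the prior count.

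Genes of the structural lung cells were lower in the isolates nearly without exception. All 25 endothelial genes that passed were lower, with a median log2 difference of -5.91 and 248 and 269 CPM in the isolates and 8233, 7886 and 8248 CPM in the lungs in sum, or 3.18% of lung. Cdh5, the adhesion protein of endothelial junctions, was at 6.12 and 7.78 CPM in the isolates against 904, 855 and 836 CPM in the lungs, a log2 difference of -6.96 ± 0.15 (SE, adjusted p = 4.16e-09). Flt1, a receptor for vascular endothelial growth factor, was at 0.9 and 0.649 CPM in the isolates against 224, 215 and 213 CPM in the lungs, Egfl7 at 2.25 and 2.50 CPM in the isolates against 451, 410.0 and 491 CPM in the lungs and the apelin receptor gene Aplnr at 0.36 and 0.834 CPM in the isolates against 268, 258 and 257 CPM in the lungs. Their log2 differences were -8.11 ± 0.17 (SE, adjusted p = 4.16e-09), -7.56 ± 0.16 (SE, adjusted p = 4.16e-09) and -8.76 ± 0.21 (SE, adjusted p = 4.71e-09). Pecam1 is not a symbol of the day 7 tables used here.

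Of 19 smooth muscle and pericyte genes 18 were lower. Acta2, smooth muscle actin, was at 4.23 and 3.15 CPM in the isolates against 469.9, 463 and 468 CPM in the lungs, a log2 difference of -6.98 ± 0.15 (SE, adjusted p = 4.16e-09). Myh11, the smooth muscle myosin heavy chain, was at 12.1 and 10.9 CPM in the isolates against 477, 491 and 501 CPM in the lungs, and Tpm2 and Actg2 differed by -5.68 ± 0.12 (SE, adjusted p = 4.16e-09) and -7.06 ± 0.16 (SE, adjusted p = 4.16e-09). The exception, Tagln2, named after its values were seen, is expressed in leukocytes as well. It was at 753 and 843 CPM in the isolates against 826, 844 and 876 CPM in the lungs and carries most of the list's sum in the isolates, 803 and 885 CPM in the isolates and 4452, 4457 and 4387 CPM in the lungs. All 20 fibroblast and matrix genes were lower, with a median of -6.07. Col1a1, the type I collagen alpha 1 chain, was at 27.7 and 16.3 CPM in the isolates against 1127, 1511 and 1437 CPM in the lungs, a log2 difference of -5.94 ± 0.29 (SE, adjusted p = 1.03e-06). Sparc, a matrix glycoprotein, was at 40.0 and 30.1 CPM in the isolates against 5858, 6171 and 6244 CPM in the lungs, and Postn, the matricellular protein periostin, at 0.81 and 0.371 CPM in the isolates against 709, 649 and 614 CPM in the lungs, differing by -7.44 ± 0.17 (SE, adjusted p = 4.34e-09) and -10.09 ± 0.22 (SE, adjusted p = 4.16e-09). The receptor gene Pdgfra and the collagen gene Col5a1 differed by -7.02 ± 0.17 (SE, adjusted p = 4.7e-09) and -6.62 ± 0.15 (SE, adjusted p = 4.45e-09).

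Epithelial transcripts were reduced but remained countable. Of 24 alveolar epithelial genes 23 were lower and 1 was higher, with 1504 and 1488 CPM in the isolates and 31622, 31058 and 36308 CPM in the lungs in sum, or 4.53% of lung. Sftpc, surfactant protein C of type 2 cells, was at 376 and 389 CPM in the isolates against 11064, 10062 and 12661 CPM in the lungs, a log2 difference of -4.88 ± 0.14 (SE, adjusted p = 8.07e-09). The type 1 cell genes Aqp5 and Pdpn were at 0.63 and 0.741 CPM in the isolates against 473, 469 and 553 CPM in the lungs and at 1.98 and 2.13 CPM in the isolates against 505, 523 and 557 CPM in the lungs, differing by -9.49 ± 0.19 (SE, adjusted p = 4.16e-09) and -8.00 ± 0.15 (SE, adjusted p = 3.89e-09). Cav1, which endothelium shares, differed by -7.60 ± 0.13 (SE, adjusted p = 3.89e-09), and the lung epithelial transcription factor gene Nkx2-1 by -6.57 ± 0.14 (SE, adjusted p = 4.16e-09). The higher member was Napsa, an aspartic protease, named after its values were seen, at 537 and 493 CPM in the isolates against 397, 382 and 435 CPM in the lungs. All 16 airway genes that passed were lower. Scgb1a1, the secretory protein of club cells, was at 254 and 143 CPM in the isolates against 6303, 5970.3 and 6734 CPM in the lungs, a log2 difference of -4.99 ± 0.28 (SE, adjusted p = 2.48e-06), and Pigr, which carries immunoglobulin across epithelium, was at 38.2 and 41.0 CPM in the isolates against 1048, 995 and 1146 CPM in the lungs, a log2 difference of -4.75 ± 0.12 (SE, adjusted p = 5.26e-09). All 6 mesothelial genes were lower, with Msln at 2.88 and 1.95 CPM in the isolates against 102, 99.7 and 137 CPM in the lungs. All 12 cardiac muscle genes that passed were lower. Rat pulmonary veins carry heart muscle, and Myh6, the atrial myosin heavy chain, was at 0.09 and 0 CPM in the isolates against 142, 144 and 163 CPM in the lungs, a log2 difference of -11.45 ± 0.29 (SE, adjusted p = 5e-09). With so few counts in the isolates, the fitted size moved with the isolate left out, for Myh6 to -14.33 without isolate 1 and -10.58 without isolate 2, and for Aplnr to -8.27 and -9.47. Of 5 neuronal and Schwann cell genes that passed, 2 were higher and 2 lower, and their median of 0.04 changed sign under 5 alternatives.

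At 10 CPM or more in every IL6KO lung, 31 genes had 0 counts in both isolates, while 1 gene, Ccr8, had the opposite pattern. Of these 31 genes, 5 had 0 counts in all 4 isolates, IL6KO and WT. The largest lower bounds belonged to Mfap4, a microfibril protein of elastic fibres, at 330.2, 324 and 382 CPM in the lungs and at least 1243-fold lower in the isolates with a floor of 3 counts per library. Cldn5, the endothelial tight junction claudin, was at 312, 308 and 393 CPM in the lungs and at least 1214-fold lower. For the venous and mesenchymal transcription factor Nr2f2 the bound was 178-fold, for the lysophosphatidic acid receptor gene Lpar3 179.9-fold, for the muscle ankyrin repeat gene Ankrd1 169-fold and for the ligand gene Wnt3a 163-fold. Slc16a12, Vtn, Higd1b and Aldh3a1 had bounds of 158-fold, 137-fold, 116-fold and 96.9-fold. With genes at 0 in the isolates set to such bounds, the median of the cardiac list was -6.55, that of the airway list -4.67 and that of the endothelial list -5.91. These are limits of counting at this depth, and an absence from every cell of the isolates is not shown.

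The IL-6 pathway was read from receptor to target. All of the 25 genes that passed, of 26 measured, were called, 17 higher and 8 lower. Of all genes tested 78.7% were called, 36.1% higher and 42.6% lower. Il6r, the ligand-binding alpha chain, was at 312 and 302 CPM in the isolates against 55.2, 63.6 and 59.6 CPM in the lungs, a log2 difference of 2.37 ± 0.10 (SE, adjusted p = 4.51e-08). Il6st, the shared signalling chain gp130, was at 97.4 and 103 CPM in the isolates against 407, 336 and 291 CPM in the lungs, a log2 difference of -1.78 ± 0.15 (SE, adjusted p = 4.96e-06). The binding chain was therefore above lung and the signalling chain below it, with no overlap in either. Stat3 was at 219 and 219 CPM in the isolates against 284, 261 and 272 CPM in the lungs, a difference of -0.31 ± 0.09 (SE, adjusted p = 0.00958), which did not pass the threshold of a log2 difference over 1. The feedback inhibitor Socs3 was at 102 and 126 CPM in the isolates against 11.4, 8.79 and 10.9 CPM in the lungs, a log2 difference of 3.46 ± 0.14 (SE, adjusted p = 4.6e-08), and the STAT3 and STAT5 target Pim1, a kinase gene, at 550.3 and 605 CPM in the isolates against 8.77, 9.69 and 9.21 CPM in the lungs, a log2 difference of 5.97 ± 0.11 (SE, adjusted p = 3.89e-09). Osm, a related cytokine that also signals through gp130, was at 100.2 and 103 CPM in the isolates against 1.96, 2.37 and 1.96 CPM in the lungs, a log2 difference of 5.60 ± 0.12 (SE, adjusted p = 4.16e-09).

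Immediate-early and stress genes were higher without exception. All 20 measured members were called higher, all also with a log2 difference over 1, at a median of 3.51. Their sum was 17310.1 and 17742 CPM in the isolates and 1299, 1262 and 1418 CPM in the lungs, or 1321% of lung. Hspa1b, an inducible HSP70 chaperone, was at 1027 and 1019 CPM in the isolates against 18.0, 17.1 and 20.5 CPM in the lungs, a log2 difference of 5.78 ± 0.11 (SE, adjusted p = 4.16e-09). Dusp1, a phosphatase that switches off MAP kinases, was at 2036 and 1879 CPM in the isolates against 119, 119 and 138 CPM in the lungs, a log2 difference of 3.97 ± 0.11 (SE, adjusted p = 6.01e-09). Btg2, an antiproliferative gene, was at 2148 and 2105 CPM in the isolates against 217, 213 and 204 CPM in the lungs, a log2 difference of 3.33 ± 0.09 (SE, adjusted p = 5.3e-09), and the AP-1 subunit gene Junb at 1102 and 1328 CPM in the isolates against 40.7, 39.1 and 48.3 CPM in the lungs, a log2 difference of 4.83 ± 0.13 (SE, adjusted p = 6.74e-09). The isolates passed through magnetic separation and the whole lungs did not. The part of that step in the T cell activation and cytokine genes above, several of which are themselves immediate-early genes, was not tested.

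Promoters of this group are shown because its members moved together and because 2 short motifs through which such genes are classically induced can be read in them. For Dusp1 and Btg2 the capitals mark a cAMP response element, TGACGTCA, and for Zfp36, named after its values were seen, a CArG box, the binding site of serum response factor. The sequences are the 250 bases before each start, 5′ to 3′ in the gene's direction (RefSeq, GRCr8). Dusp1 lies at chr10:17184603-17184852, plus strand, Btg2 at chr13:48087691-48087940, minus strand and Zfp36 at chr1:92799109-92799358, minus strand.
Dusp1: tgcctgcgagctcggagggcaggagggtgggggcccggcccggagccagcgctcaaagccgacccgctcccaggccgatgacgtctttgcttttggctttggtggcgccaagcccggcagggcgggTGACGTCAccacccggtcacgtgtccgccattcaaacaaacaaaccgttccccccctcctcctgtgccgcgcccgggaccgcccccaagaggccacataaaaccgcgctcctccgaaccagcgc
Btg2: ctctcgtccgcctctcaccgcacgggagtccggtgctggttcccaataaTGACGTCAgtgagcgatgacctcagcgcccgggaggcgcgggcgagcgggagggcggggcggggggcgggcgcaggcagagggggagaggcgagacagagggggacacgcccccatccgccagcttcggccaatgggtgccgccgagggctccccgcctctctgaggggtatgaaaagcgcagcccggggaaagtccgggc
Zfp36: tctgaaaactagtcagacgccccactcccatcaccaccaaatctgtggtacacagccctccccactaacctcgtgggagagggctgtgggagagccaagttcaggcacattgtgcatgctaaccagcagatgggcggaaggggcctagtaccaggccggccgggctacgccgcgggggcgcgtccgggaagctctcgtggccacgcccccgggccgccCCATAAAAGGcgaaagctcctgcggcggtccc
The matches began 124, 201 and 32 bases before the start, and none overlapped a match to another of the motifs searched. Of 22 listed genes 16 matched a promoter window of 300 bases. The cAMP response element was found on either strand in 4 of them (25%), against 1.83% of 33469 windows. The CArG box was found in 4 others (25%), against 1.64% of windows. Zfp36, which encodes tristetraprolin, a protein that destabilises cytokine messages, was at 1848 and 1914 CPM in the isolates against 94.5, 101 and 125 CPM in the lungs, a log2 difference of 4.14 ± 0.13 (SE, adjusted p = 1.14e-08). A match is a description of the letters in the window, not of a bound factor.

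Growth and metabolic genes differed by less. Of 21 proliferation genes 14 were higher, 1 was lower and 6 were not called, with a median of 0.73. The replication genes Pcna and Mcm3 were at 246 and 273 CPM in the isolates against 66.7, 64.8 and 57.8 CPM in the lungs and at 101 and 106 CPM in the isolates against 22.1, 21.9 and 17.2 CPM in the lungs, differing by 2.04 ± 0.10 (SE, adjusted p = 1.65e-07) and 2.35 ± 0.12 (SE, adjusted p = 2.22e-07). Interferon response genes were 12 higher and 4 lower of 17; the antiviral genes Mx1 and Oasl differed by 3.09 ± 0.16 (SE, adjusted p = 3.16e-07) and 4.01 ± 0.10 (SE, adjusted p = 5.26e-09), while Ifi27 was lower by -2.37 ± 0.14 (SE, adjusted p = 4.88e-07). All 9 mitochondrially encoded genes were higher with a median of 0.79, and none passed a log2 difference over 1. Cytosolic ribosomal protein genes, a list added after the values were seen, were 60 higher and 2 lower of 63 that passed, with a median of 1.78. In the BMP receptor pathway, whose loss of function in endothelium is a known cause of pulmonary arterial hypertension, 12 of 17 genes were lower and 2 higher. Acvrl1 and Eng, receptors of endothelium, were at 14.4 and 19.3 CPM in the isolates against 840.1, 824 and 957 CPM in the lungs and at 14.6 and 19.4 CPM in the isolates against 519.9, 492 and 544 CPM in the lungs, and the target gene Id2, also a lymphocyte factor, was at 279 and 300.1 CPM in the isolates against 33.0, 33.1 and 30.9 CPM in the lungs.

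The 2 isolates were close for Cd3e and Cd4 and apart for some macrophage, red cell and airway genes. Cd3e was at 533 CPM in isolate 1 and 478 CPM in isolate 2, and Cd4 at 838 and 788 CPM. Of the 116 genes over 2-fold apart, 38 were higher in isolate 1 and 78 in isolate 2. Genes named here were chosen after their values were seen. In isolate 2 the scavenger receptor genes Cd163 and Mrc1 were at 69.0 and 434 CPM, against 26.1 and 194 CPM in isolate 1. The macrophage genes Gpnmb, Spp1 and Fabp4 were at 564, 56.8 and 44.7 CPM in isolate 2 and at 146, 13.6 and 7.83 CPM in isolate 1. Isolate 1 had more of the globin gene Hba-a1, at 8107 against 3895 CPM, of the haem synthesis gene Alas2, at 116 against 46.5 CPM, and of the airway mucin gene Muc5b, at 10.6 against 1.02 CPM. With only 2 isolates this spread was not tested; the called counts without isolate 1 and without isolate 2 were 10628 and 10803 genes.

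**Figure D3:**
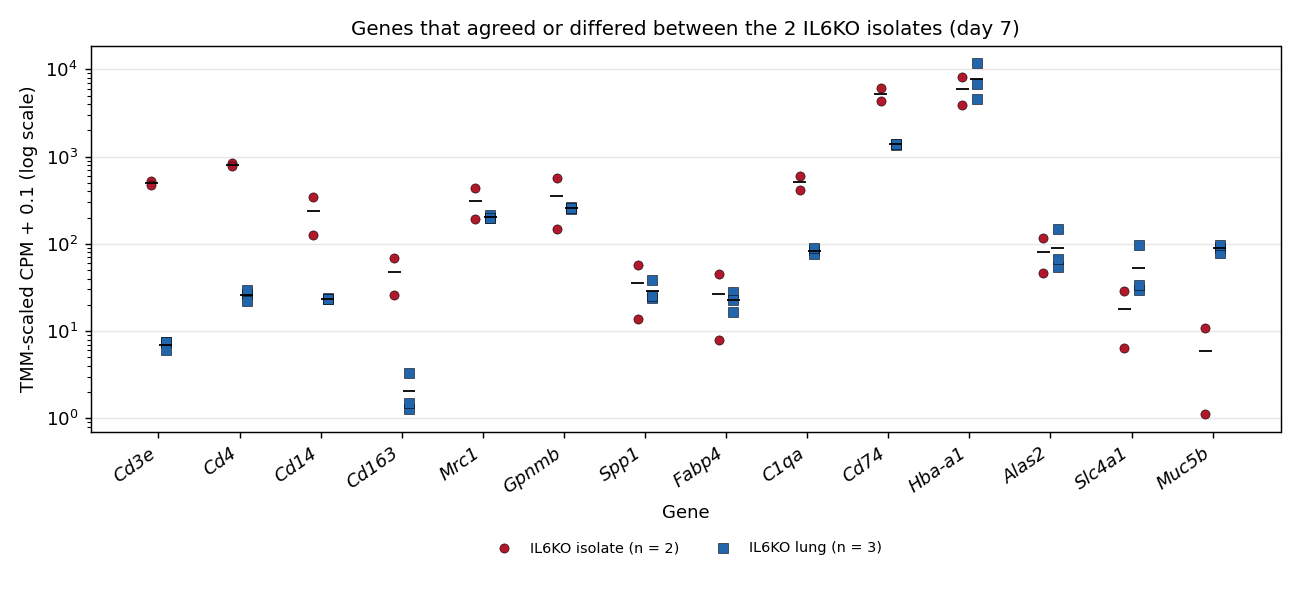
TMM-scaled CPM plus 0.1 on a log axis for 14 genes in the 2 IL6KO isolates (circles) and 3 IL6KO lungs (squares), with bars at group means. Cd3e and Cd4 are close between the isolates, while Cd163, Gpnmb and Fabp4 are higher in 1 isolate and Hba-a1, Alas2 and Muc5b in the other.

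The WT isolates and lungs differed for a like share of genes, 82.2% of 14463 tested. The isolate-against-lung difference was then compared between genotypes in a fit of all 10 day 7 libraries. Of 14772 genes tested, 949 (6.42%) had a difference that depended on genotype; 277 were shifted upwards in IL6KO (1.88%) and 672 downwards (4.55%). The split depended on the scaling, with 29.2% of calls upwards by TMM and 48.0% by library size alone (406 upwards and 440 downwards). The count also rested on single libraries, with 341 genes without WT isolate 1, 528 without IL6KO isolate 2, 514 without IL6KO lung 2 and 586 without WT lung 2. The test combines isolates and lungs: of the 949 genes, the isolates of the genotypes did not overlap for 933 and the lungs for 399. Among all genes tested, the corresponding shares were 54.6% for isolates and 18.7% for lungs.

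Cd8a depended on genotype and Cd4 was not called. Cd8a was at 150.3 and 109 CPM in the WT isolates against 8.32, 10.7 and 8.55 CPM in the WT lungs, so the WT isolates were above the WT lungs by a log2 difference of 3.84 ± 0.16 (SE, adjusted p = 3.29e-08), where the IL6KO isolates were not above theirs. The difference between genotypes was -3.91 ± 0.27 (SE, adjusted p = 6.95e-05) and was called under all 18 alternatives. Cd8b, the CD8 beta chain, named after its values were seen, was at 4.32 and 3.24 CPM in the isolates against 1.45, 1.41 and 1.58 CPM in the lungs in IL6KO and at 11.8 and 12.6 CPM in the WT isolates against 0.802, 1.58 and 1.52 CPM in the WT lungs, a difference between genotypes of -1.84 ± 0.37 (SE, adjusted p = 0.0147). It was called in 15 of 17 alternatives and lost without IL6KO isolate 2 or WT isolate 1, at adjusted p values of 0.0539 and 0.0503. In both genes the isolates of the 2 genotypes did not overlap. Cd4 and Cd3e showed no called dependence, with -0.18 ± 0.18 (SE, adjusted p = 0.591) and -0.44 ± 0.21 (SE, adjusted p = 0.26). Beside 4.55% of all genes tested downwards and 1.88% upwards, 4 of 15 cytotoxic and natural killer genes were shifted downwards and none upwards. Among them Prf1, the gene of the pore-forming protein perforin, named after its values were seen, was at 49.5 and 47.6 CPM in the isolates against 60.0, 53.8 and 47.5 CPM in the lungs in IL6KO and at 67.6 and 56.0 CPM in the WT isolates against 15.7, 23.7 and 22.5 CPM in the WT lungs. Its difference between genotypes was -1.72 ± 0.23 (SE, adjusted p = 0.00171), and the lungs of the genotypes did not overlap either. The sum of the cytotoxic and natural killer list overlapped between isolates, at 325 and 213 CPM in IL6KO and 292 and 282 CPM in WT. In the lungs it did not overlap, at 200, 189 and 163 CPM in IL6KO and 59.4, 87.7 and 85.7 CPM in WT.

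Genes of the T cell identity and activation lists were shifted downwards or not called, where 4.55% of all genes tested were shifted downwards. In T cell identity 6 of 20 were lower and none higher, with a median of -0.47 beside -0.11 for all genes, and across the alternatives between 0 and 6 were called. None was called without IL6KO isolate 2, IL6KO lung 2 or WT isolate 1, 1 without IL6KO lung 1, 2 without WT isolate 2 and 3 without WT lung 1. In T cell activation 4 of 13 were lower and none higher, and Cd69 had a difference of -1.33 ± 0.21 (SE, adjusted p = 0.0046). Il2ra was at 183 and 193 CPM in the WT isolates against 3.27, 3.60 and 3.22 CPM in the WT lungs, and its difference of -0.99 ± 0.14 (SE, adjusted p = 0.00196) was called under all 18 alternatives. Tnfrsf18 had a difference of -1.58 ± 0.25 (SE, adjusted p = 0.00413), also called in all 18, whereas the regulatory T cell factor Foxp3 had 0.20 ± 0.19 (SE, adjusted p = 0.606). Of 8 Th1 genes 3 were shifted downwards and none upwards: Tbx21, Il12rb2 and Il18rap, the last at -1.63 ± 0.24 (SE, adjusted p = 0.00262). Tbx21 and Il12rb2, named after their values were seen, were called higher in the WT isolates than in the WT lungs. Between IL6KO isolates and lungs these 2 genes were not called.

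A minority of macrophage genes were called in the upward direction, where 1.88% of all genes tested were. Of 26 measured, 5 were upwards and none downwards, with a median of 0.60, and the 18 alternatives called between 2 and 9. The count was 2 without WT isolate 1, 9 without WT lung 1 and 3 without IL6KO isolate 2, IL6KO lung 1 or 2, WT isolate 2, or WT lung 2 or 3. Csf1r was at 1056 and 990.4 CPM in the WT isolates against 258, 263 and 268 CPM in the WT lungs, and its difference between genotypes of 0.64 ± 0.11 (SE, adjusted p = 0.00668) was called in all 18. Cd68, at 201 and 191 CPM in the WT isolates against 80.5, 114 and 136 CPM in the WT lungs, had a difference of 1.06 ± 0.26 (SE, adjusted p = 0.0358), called in 10 of 18 and lost on leaving out IL6KO isolate 1 or 2, IL6KO lung 1 or 2, WT isolate 1 or 2, or WT lung 2, at adjusted p values up to 0.119. The IL6KO isolates were above the WT isolates in both genes, and the Csf1r levels of the lungs overlapped. Irf8 had a difference of 0.71 ± 0.17 (SE, adjusted p = 0.0317), called in 12 of 18 and lost among others without IL6KO isolate 2, at an adjusted p of 0.124. The class II gene RT1-Db2 was at 9.99 and 17.1 CPM in the isolates against 2.79, 3.32 and 2.39 CPM in the lungs in IL6KO and at 1.11 and 0.176 CPM in the WT isolates against 2.16, 3.36 and 4.10 CPM in the WT lungs, a difference of 4.63 ± 0.64 (SE, adjusted p = 0.0023), called in 17 of 18 and subject to the near copies named above.

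**Figure D4:**
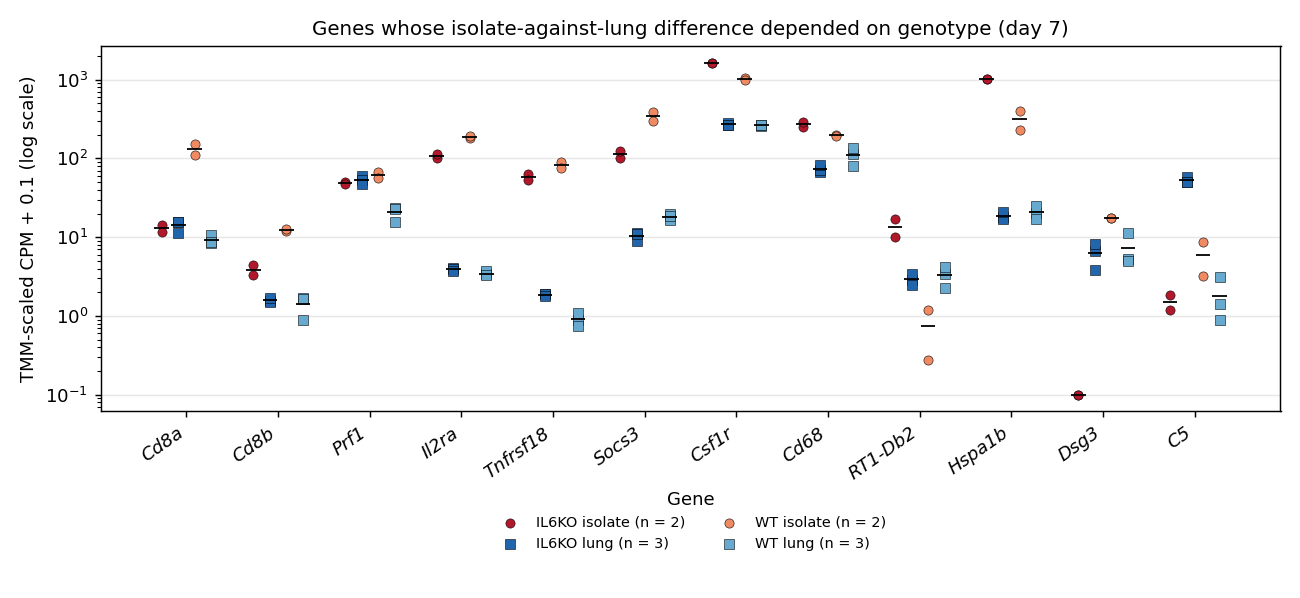
TMM-scaled CPM plus 0.1 on a log axis for 12 genes whose isolate-against-lung difference was called as dependent on genotype, with a point per library (circles for isolates, squares for lungs) and bars at group means. Cd8a is at lung level in the IL6KO isolates and at 150.3 and 109 CPM in the WT isolates, and C5 differs between the lungs of the genotypes.

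In the IL-6 pathway 1 of 26 genes tested depended on genotype, not above the 6.42% of all genes tested (1.88% upwards and 4.55% downwards). Socs3 was at 383 and 302 CPM in the WT isolates against 16.4, 19.4 and 18.3 CPM in the WT lungs, so the WT isolates stood above the IL6KO isolates without overlap, and the lungs were likewise ordered. The difference was -0.79 ± 0.20 (SE, adjusted p = 0.0385), and it was called in 5 of 18 alternatives. The call was lost without IL6KO isolate 1, any IL6KO lung, WT isolate 1 or any WT lung, at adjusted p values up to 0.16. It was also lost with the replicate block (adjusted p = 0.0713), limma-voom, library size alone, upper-quartile factors and a filter at a mean of 5 CPM. Il6r, Il6st and Stat3 were not called, at 0.14 ± 0.14 (SE, adjusted p = 0.612), -0.32 ± 0.19 (SE, adjusted p = 0.358) and -0.32 ± 0.13 (SE, adjusted p = 0.19). The immediate-early list had 4 genes upwards of 20, but 1 without IL6KO isolate 2 or WT isolate 1 and 2 without IL6KO lung 2, WT lung 2 or WT lung 3. Hspa1b was at 227 and 401 CPM in the WT isolates against 20.0, 16.8 and 24.99 CPM in the WT lungs, a difference of 1.85 ± 0.32 (SE, adjusted p = 0.0122), called in all 18 alternatives; Dusp1 and Btg2 were not called, at 0.45 ± 0.21 (SE, adjusted p = 0.248) and 0.04 ± 0.11 (SE, adjusted p = 0.901). Ribosomal protein genes were shifted downwards for 42 and upwards for 1 of 63, and mitochondrial genes downwards for 6 of 9. With library size alone these counts were 20 of 63 and 3 of 9. The downward ribosomal count also rested on single libraries. It was 6 without IL6KO lung 2, 8 without WT isolate 1, 16 without WT lung 1 or 2, 21 and 24 without IL6KO isolate 1 and 2, and 26 without WT isolate 2. The mitochondrial count was 0 without WT isolate 1, 2 without IL6KO lung 2, and 3 without either IL6KO isolate, IL6KO lung 1, or WT lung 1 or 2.

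The summed alveolar, airway and mesothelial levels were a smaller share of lung in the IL6KO isolates than in the WT isolates. The mesothelial list held 1.77% of lung in IL6KO and 6.86% in WT. Of its 6 genes 3 were shifted downwards and none upwards, beside 4.55% and 1.88% of all genes tested. Sums of the neutrophil list (838% and 1778%) and the T cell identity list (3313% and 5284%) were also a smaller share in IL6KO. The neutrophil sum was 663 and 565 CPM in the IL6KO isolates and differed between the WT isolates, at 808 and 1604 CPM. Of 13 neutrophil genes tested, 1 was shifted downwards and none upwards. The downward count was 0 with limma-voom and 4 with DESeq2. Of 24 alveolar epithelial genes 15 were shifted downwards and none upwards, with a median of -1.12, and the alternatives called between 11 and 16. The isolates held 4.53% of the lung level of these genes in IL6KO and 10.8% in WT, and for the airway list 3.48% and 12.9%. Of 16 airway genes 4 were shifted downwards (Scgb1a1, Scgb3a2, Cyp2f4 and Pigr) and none upwards, and Scgb1a1 made up most of the airway sum in every library. Sftpc was at 1847 and 1215 CPM in the WT isolates against 10606, 10430.1 and 11944 CPM in the WT lungs, a difference of -2.04 ± 0.23 (SE, adjusted p = 0.000671), and Scgb1a1 at 619.7 and 587 CPM in the WT isolates against 5102, 4634 and 4768 CPM in the WT lungs, a difference of -1.99 ± 0.26 (SE, adjusted p = 0.00157). Sftpc was higher in each WT isolate than in any IL6KO isolate, and its lung values overlapped. Acta2, at 13.7 and 11.1 CPM in the WT isolates against 526, 528 and 570.1 CPM in the WT lungs, had a difference of -1.53 ± 0.18 (SE, adjusted p = 0.00098), while Col1a1 was not called at -0.14 ± 0.33 (SE, adjusted p = 0.861). The endothelial list held 3.18% and 3.94% of lung, with 3 of 25 genes shifted, and 7 of 26 without WT isolate 2. Of 19 smooth muscle and pericyte genes 5 were shifted downwards and none upwards, with a median of -0.85. The list's sum was 19.0% of lung in IL6KO and 19.9% in WT, and Tagln2 carried most of it in the IL6KO isolates. The lower epithelial and Cd8a levels and the higher Csf1r levels in the IL6KO isolates were measured in the same libraries. The part of the isolates' makeup in each was not tested.

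**Figure D5:**
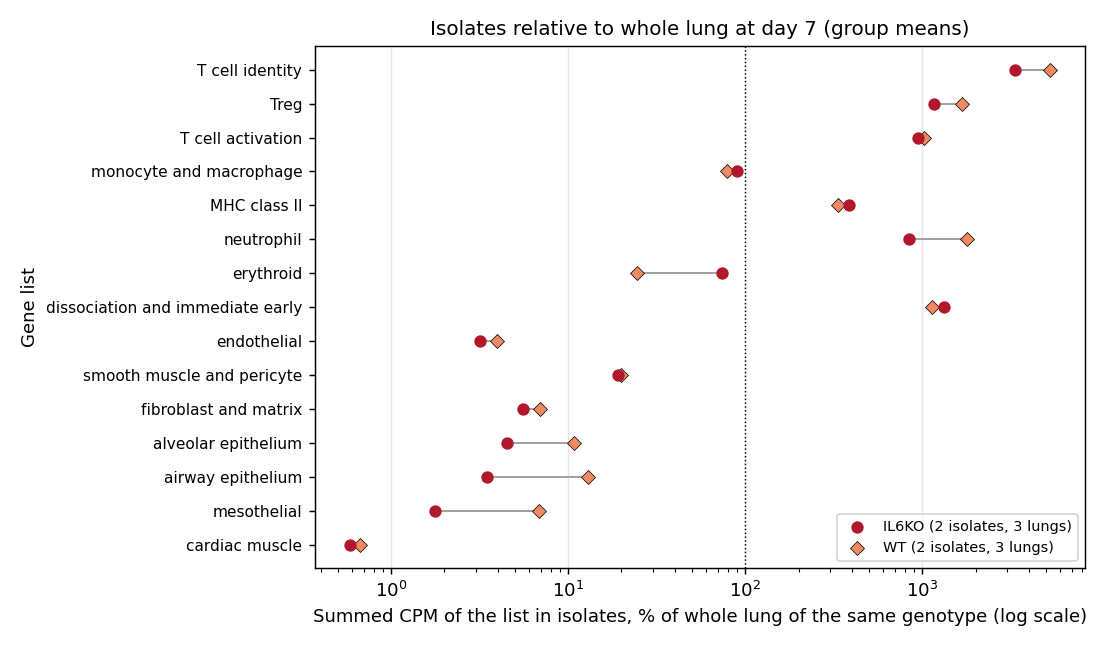
Summed CPM of each gene list in the isolates as a percent of whole lung of the same genotype, from group means (2 isolates and 3 lungs each) on a log axis, with IL6KO as circles and WT as diamonds; the dotted line marks the lung level. The genotypes lie close for the T cell activation, MHC class II and smooth muscle sums. The smooth muscle sum in the IL6KO isolates is mostly Tagln2, and 5 of 19 genes of that list were shifted downwards. IL6KO lies below WT for alveolar and airway epithelium, mesothelial, neutrophil and T cell identity genes, among others, and above it for erythroid genes. The WT isolates were apart in the neutrophil sum, at 808 and 1604 CPM.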

How the data were processed

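Rat RNA-seq libraries of day 7 were analysed, 2 CD4 isolates and 3 lungs of each genotype; the other samples of the series were not used here. Values were the authors' deposited raw counts per gene symbol, in 1 table for isolates and 1 for lungs. The labels describe Trizol and PureLink extraction of total RNA and standard Illumina libraries; the submitters' processing notes name the mouse build GRCm38, and which aligner and counter were used is not given in the sources used here. Of 22081 symbols in each table, 22071 were in both and were used. Genes were filtered with filterByExpr, scaled by TMM and tested with edgeR 4.0.16 (robust quasi-likelihood, R 4.3.3), taking p-values adjusted by Benjamini-Hochberg across the whole set of tested genes, with a threshold of 0.05. Standard errors are the log2 difference divided by the square root of F. A floor of 3 counts was used for genes at 0, equal to between 0.143 and 0.278 CPM in the IL6KO libraries. Floors cover counting error only.

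Chi-square values per gene between replicates were between 9.01 and 27.9, so none looked like copies of 1 library. Isolates and lungs shared replicate numbers, and the correlations of their deviations in IL6KO were 0.042 for number 1 and -0.051 for number 2. With only 2 isolates, the deviations of isolate 2 mirror those of isolate 1. These values therefore cannot decide whether equal numbers share a rat. Alternatives were DESeq2 1.42.0, limma-voom (limma 3.58.1), other scalings and filters, a fit of all 10 libraries, the replicate block and each library left out. In simulated counts with 200 of 14286 genes changed, the IL6KO comparison recovered 71.7% of genes changed by a log2 of 1. It recovered 99% of those changed by 2, with 9.09% of calls false. For the genotype difference, with 200 of 14498 genes changed, these were 55.6%, 84% and 7.95%. Far fewer genes were changed than the 78.7% called here, so the simulation does not measure scaling or false calls in that setting.

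The members and gene lists were chosen with earlier results of these data known. Genes named were 18 fixed markers, the 10 called genes of largest difference in each direction at 5 CPM or more without overlap, up to 4 members of each list with the smallest p and, for the genotype difference, the 5 largest in each direction; any others are said to have been chosen after their values were seen. Promoters were matched by symbol to a RefSeq table of GRCr8.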

Additional observations from a re-analysis of the deposited data

Results flagged for a closer look

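Listed here are 17 genes whose isolate-against-lung difference depended on genotype, the called ones among the fixed marker genes and the 5 largest in each direction; other called genes are named above. The test is that of the difference itself in edgeR's quasi-likelihood fit of the 10 libraries (log2, IL6KO minus WT). Among the marker genes these were Csf1r at 0.64, Cd68 at 1.06, Cd8a at -3.91, Socs3 at -0.79, Sftpc at -2.04, Scgb1a1 at -1.99 and Acta2 at -1.53, described above.

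The 5 largest upward differences were Tmcc2 at 5.59, Kel at 5.26, RT1-Db2 at 4.63, Hemgn at 3.59 and Slc2a10 at 3.32. Without IL6KO isolate 1 these were 4.40, 4.45, 4.97, 2.93 and 2.95, in the same order. Without IL6KO isolate 2 they were 6.22, 5.76, 4.19, 4.03 and 3.61. The calls of Kel and Hemgn were lost without IL6KO isolate 1, IL6KO lung 2, WT isolate 1 or 2, or WT lung 2, and that of Kel also without WT lung 1 or 3. The call of Tmcc2 was lost without WT isolate 1 or 2, and with the replicate block at an adjusted p of 0.0586. With limma-voom the calls of all 3 were lost. Without WT isolate 2 the fitted size of Kel was 9.97. Kel, Hemgn and Tmcc2 are expressed in the red cell lineage. Tmcc2 was at 126 and 35.5 CPM in the IL6KO isolates and 2.82 and 1.94 CPM in the WT isolates, and at 73.3, 124 and 78.9 CPM in the IL6KO lungs and 129, 125 and 134 CPM in the WT lungs. Kel was at 10.3 and 4.17 CPM in the IL6KO isolates and 0 and 0.352 CPM in the WT isolates. The erythroid list summed to 18281 and 8565 CPM in the isolates and 28519, 11044 and 15043 CPM in the lungs of IL6KO and to 2877 and 4275 CPM in the WT isolates and 15002, 14282 and 14465 CPM in the WT lungs, and its part in these differences was not tested.

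The 5 largest downward differences were Dsg3 at -10.91, Nr2f2 at -7.03, C5 at -6.98, Nkain4 at -6.35 and Ptprr at -5.97. Dsg3, Nr2f2, Nkain4 and Ptprr had 0 counts in both IL6KO isolates, so the fitted size depends on the prior count and is no bound. In the WT isolates Dsg3, a desmosomal cadherin, was at 17.6 and 17.5 CPM and Nr2f2 at 1.51 and 0.616 CPM. C5, the complement component, was at 1.08 and 1.76 CPM in the IL6KO isolates and 8.66 and 3.08 CPM in the WT isolates. Its lungs were at 58.5, 49.9 and 49.5 CPM in IL6KO and 0.802, 1.30 and 3.04 CPM in WT, so the genotypes lay far apart in the lungs.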

How the results depend on the processing

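With a log2 difference over 1 required (glmTreat), the IL6KO comparison called 6357 genes, 2109 of them higher. Leaving out 1 library at a time it called between 10628 and 11346 genes (4736 to 5318 higher, 5807 to 6028 lower), and the WT comparison between 11331 and 11657 (5336 to 5496 higher, 5910 to 6161 lower). The genotype difference called between 341 and 1111 genes on leaving out 1 library (87 to 346 upwards, 254 to 809 downwards), 600 with limma-voom (404 downwards), 419 upwards with DESeq2 and 440 downwards with library size alone; the cause was not tested. An arm left with 1 library is assumed to vary like the others. With the replicate block the 3 comparisons called 11104, 11545 and 1175 genes. Library size alone moved the median of all genes from -0.11 to -0.31 in the IL6KO comparison, and its genes called higher from 5234 to 4369. It moved the share of WT calls that were higher from 47.6% to 36.6%. Of the named genes' values under the alternatives, 2690 kept their direction and side of the threshold in the IL6KO comparison, 20 lost and 6 gained a call; for the genotype difference these were 3060, 148 and 52, and none of the called values changed sign. The block ended the call of Il6 alone among the genes named for the IL6KO comparison, and gained that of Slc4a1, among others. Depth limits statements on genes at 0 in the isolates to the floor of 3 counts.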

Other observations

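A few genes differed between single libraries irrespective of group and were noticed after their values were seen. Fam111a was at 10.3 and 158 CPM in the IL6KO isolates, 166, 11.3 and 6.83 CPM in the IL6KO lungs, 8.66 and 310.1 CPM in the WT isolates and 256, 12.6 and 13.1 CPM in the WT lungs. Each of the 4 groups held at least 1 low and 1 high library, with none between 13.1 and 158 CPM. Aldh18a1 was at 10.7 and 0 CPM in the IL6KO isolates and at 28.8, 5.97 and 25.5 CPM in the IL6KO lungs.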
